A study of Mus musculus with 24 samples.

Results

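The genes described here are 10 factors of ER-associated degradation (ERAD), followed in vascular smooth muscle cells (VSMCs) loaded with cholesterol. They are the 3 derlins Derl1, Derl2 and Derl3, the ubiquitin ligase Syvn1 (also known as Hrd1) with its partners Sel1l and Herpud1, the lectin Os9, and the mannosidase-related genes Edem1, Edem2 and Edem3. They were chosen by name, as components of this pathway, from the 24453 named genes of the RNA table. The choice was made with earlier results of these data known. Each gene was read from its transcript row of highest mean RPKM. All 10 were among the 12648 genes tested. ERAD is the route by which misfolded proteins of the endoplasmic reticulum are recognised, moved back across the membrane, ubiquitinated and degraded by the proteasome. Edem proteins and Os9 read the sugar chains of misfolded glycoproteins, Sel1l hands them to Syvn1, Herpud1 helps to organise the ligase complex, and derlins form part of the passage through the membrane. Many of these genes are known targets of the unfolded protein response, the set of signals that raises folding and degradation capacity when unfolded protein accumulates.

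The cells were cultured VSMCs from the thoracic aorta of young adult C57BL/6J mice, a wild-type strain, used at low passage. Cholesterol loaded VSMCs were given cholesterol carried by methyl-β-cyclodextrin (20 µg/mL of the complex, with 0.2% BSA) and collected after 24 h or after 48 h. Control VSMCs were kept with 0.2% BSA alone and collected before (0 h) or at the same times. Since they received no cyclodextrin, the effects of cholesterol and of its carrier cannot be told apart. Poly-A RNA was sequenced in 14 libraries, with 3 replicates in each of the 5 groups except control cells at 48 h, where 2 (replicates 2 and 3) were in the table. The study left control 0 h replicate 1 out of one of its comparisons because it did not cluster with its group, and that library is kept here, with values without it where a call changes. The acetylated histone H3K27ac, a mark of active promoters and enhancers, was profiled with 1 library per condition.

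The RNA libraries held 2726780 to 7590880 tags over all genes. At 48 h the 10 smooth muscle markers summed to 182 to 212 RPKM in cholesterol loaded VSMCs, against 236 to 241 in controls. At 24 h the sums were 157 to 166 in cholesterol loaded cells and 188 to 200 in controls, and at 0 h they ran between 200 and 341. Acta2 (smooth muscle actin) averaged 40.4 RPKM in cholesterol loaded cells at 48 h and 44.2 in controls. Tagln averaged 53.9 in loaded cells and 62.9 in controls, and Myh11, the heavy chain of smooth muscle myosin, 1.68 in loaded cells and 3.03 in controls. Over the whole list, 1 of 10 markers rose and 3 fell at 48 h (Myocd rose, while Myh11, Cnn1 and Smtn fell), and 0 rose and 2 fell at 24 h. Among all genes tested, 11.9% rose and 12.9% fell at 48 h, and 2.48% rose and 2.96% fell at 24 h. Macrophage markers summed to 8.61 to 9.3 RPKM in cholesterol loaded cells at 48 h, against 6.44 to 6.63 in controls. Of the 8 on the list 4 could be tested and 2 of those rose, Cd68 (log2 fold change 0.87, limma adjusted p = 0.000485) and Csf1r (0.18, adjusted p = 0.0205). The other 2 were not called, Lyz2 at −0.27 (adjusted p = 0.186) and Cd14 at −0.07 (adjusted p = 0.878). The median of the 4 was 0.06. Csf1r averaged 0.517 RPKM in loaded cells and 0.338 in controls. Group means of Ptprc, Adgre1 and Itgam were at most 0.00453 RPKM and Fcgr1 was at 0 in all libraries. Plasma and B cells, which use ERAD heavily, were checked with 8 markers, of which only Sdc1 could be tested (log2 fold change −0.23 at 48 h, adjusted p = 0.0359) and Cd79b was at 0 in all libraries. Fibroblast markers summed to 0.855 to 1.2 RPKM in cholesterol loaded cells at 48 h, against 1.61 to 1.81 in controls, and 2 of the 4 tested fell (Pi16 by 0.40 and Dcn by 0.07 on the log2 scale). Pi16 averaged 0.402 RPKM in loaded cells and 0.84 in controls, and Dcn 0.0904 in loaded cells and 0.147 in controls. Endothelial markers summed to 0.371 to 0.561 RPKM in cholesterol loaded cells at 48 h, against 0.499 to 0.502 in controls. Of the 7 tested 1 fell (Tek, by 0.14), near the 12.9% of all genes that fell. Tek averaged 0.122 RPKM in loaded cells and 0.236 in controls. The log2 scale used here adds 1 to the RPKM and so understates changes of markers as low as Csf1r, Pi16, Dcn and Tek. The part of these marker shifts in the ERAD values was not tested, and in bulk RNA more cells using a gene cannot be told apart from more RNA per cell.

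ATF6 and XBP1, transcription factors of the unfolded protein response, are known to act through short elements near the start of transcription, and the promoters of the 10 genes were searched for these. In the 250 bases upstream of RefSeq starts (GRCm38.p6, the same assembly as mm10), the ER stress element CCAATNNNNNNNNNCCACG, searched on both strands, was found in 37 of 32851 promoters, or 0.113%, and the promoters of Derl3 and Syvn1 were among them. The second form of the element, ATTGGNCCACG, was found in 10 promoters, or 0.0304%, and Herpud1 held it. The sequences below are shown because they are the members that carry a complete element. Capitals mark the 5 bases at each end of the element, which in Derl3 lies on the minus strand and so reads CGTGG before ATTGG.

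Derl3, chr10:75893148-75893397, plus strand: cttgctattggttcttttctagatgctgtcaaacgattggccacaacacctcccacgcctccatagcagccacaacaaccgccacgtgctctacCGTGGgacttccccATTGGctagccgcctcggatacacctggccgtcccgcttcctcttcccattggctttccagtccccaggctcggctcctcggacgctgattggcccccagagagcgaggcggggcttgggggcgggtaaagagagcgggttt

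Syvn1, chr19:6046326-6046575, plus strand: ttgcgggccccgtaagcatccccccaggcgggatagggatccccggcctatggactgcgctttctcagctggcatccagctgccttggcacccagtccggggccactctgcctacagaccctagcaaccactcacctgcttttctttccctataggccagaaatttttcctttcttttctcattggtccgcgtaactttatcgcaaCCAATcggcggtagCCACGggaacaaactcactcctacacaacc

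Herpud1, chr8:94386179-94386428, plus strand: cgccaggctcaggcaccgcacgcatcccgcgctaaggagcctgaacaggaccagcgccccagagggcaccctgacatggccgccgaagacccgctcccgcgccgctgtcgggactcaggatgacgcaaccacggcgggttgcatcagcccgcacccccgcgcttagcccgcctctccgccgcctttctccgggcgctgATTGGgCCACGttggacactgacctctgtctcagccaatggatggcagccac

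The element lies 156 to 138 bases before the start in Derl3, 44 to 26 before it in Syvn1 and 52 to 42 before it in Herpud1. The Derl3 start is the one used in the RNA table, whereas the RefSeq start of Syvn1 lies 569 bp and that of Herpud1 71 bp upstream of the table's. Of the 10 genes 9 had a RefSeq promoter in the reference, all but Derl1. The core CCACG alone occurred in 8 of those 9 but also in 28.3% of all promoters. The element TGACGTGG was in 0 of the 9 and in 0.563% of all promoters, and its core ACGTGG was in 4 (Derl3, Edem3, Herpud1 and Os9) and in 6.91% of all. A composite site known to bind ATF4 with C/EBP factors, TGATGCAA, was in Herpud1 alone of the 9 and in 0.791% of all promoters. The CCAAT box, which is contained in the ER stress element, occurred 5 times each in Derl2 and Derl3 and 4 times each in Sel1l and Os9. At least 4 copies were present in 0.84% of all promoters, and this count was added after the sequences had been seen. A match describes letters in a window and was not tested for binding.

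Cholesterol loading for 48 h was followed by higher RNA of 7 of the 10 ERAD genes and lower RNA of 0. Across all genes tested, 11.9% were called higher and 12.9% lower at this time. The 10 genes were chosen with earlier results of these data known, so this contrast with all genes is descriptive only. The called genes were Derl3, Herpud1, Syvn1, Edem1, Sel1l, Derl1 and Edem2, with Derl3 the largest change by far. Derl2, Os9 and Edem3 did not pass the test. All 10 log2 fold changes were positive, and their median was 0.49, against 0.0 for all genes tested. Without control 0 h replicate 1, 9 genes were called higher, Derl2 and Os9 in addition. The share of all genes called in that fit is not given here, and the 11.9% belongs to the fit with all libraries. In 9 of 10, all but Edem3, every cholesterol loaded library lay above every control library, which held for 21.8% of all genes.

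**Figure D1:**
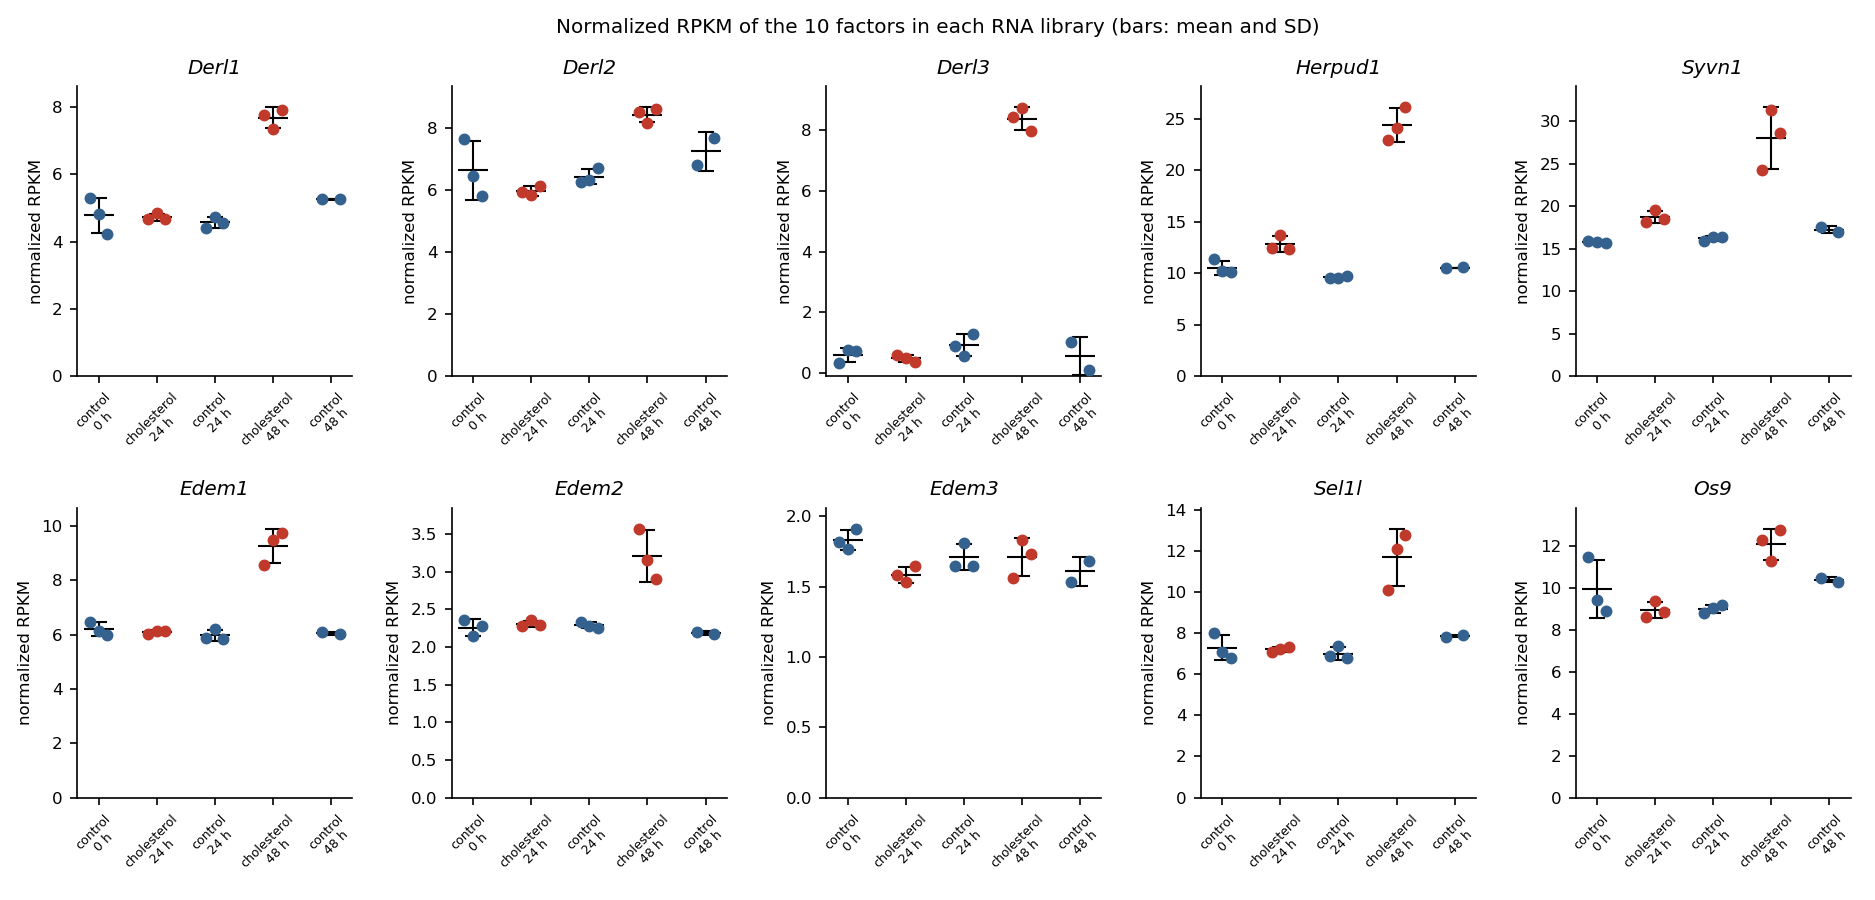
RNA level of each of the 10 ERAD genes (y axis, normalized RPKM, 1 panel per gene) in every library, by treatment and time (x axis), with each group's mean and SD. The 3 cholesterol loaded libraries at 48 h lie above both controls of that time for every gene but Edem3, and Derl3 stands near 8 RPKM in them while it is at 1.28 or less in all other libraries.

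Derl3, which like Derl2 is a known target of the unfolded protein response, was nearly silent outside a single group. It stood at 8.44, 8.73 and 7.98 RPKM in the 3 cholesterol loaded libraries at 48 h, against 1.01 and 0.106 RPKM in the 2 controls. The 3 loaded libraries were close to each other, and none of the other 11 libraries exceeded 1.28 RPKM. The group means were 8.38 ± 0.38 RPKM in cholesterol loaded cells (SD, n = 3) and 0.557 ± 0.638 RPKM in controls (SD, n = 2). At 24 h Derl3 was at 0.588, 0.479 and 0.358 RPKM in cholesterol loaded cells and at 0.88, 0.571 and 1.28 RPKM in controls, with overlapping ranges. Before treatment it was at 0.319, 0.75 and 0.708 RPKM. On the log2(RPKM + 1) scale the change at 48 h was 2.65 (SE 0.215, 95% confidence interval 2.19 to 3.12, limma adjusted p = 5.3e-06), and the mean RPKM was 15.1 times the control mean. The log2 scale with a pseudocount of 1 understates the change of a gene this low in controls, and with a pseudocount of 0.1 the value was 4.15 (adjusted p = 0.000165).

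Because Derl3 is short and low in most groups, its values rest on few tags. The deposited RPKM correspond to 111, 103 and 71 tags in the cholesterol loaded libraries at 48 h, against 10 (95% Poisson interval 4.8 to 18.4) and 1 (0.0253 to 5.57) in the controls. Summed by group there were 24 tags at 0 h. At 24 h the sums were 28 in cholesterol loaded cells and 51 in controls, and at 48 h they were 285 in cholesterol loaded cells and 11 in controls. The depth-corrected tag ratio at 48 h was 14.8, with an exact counting interval of 8.15 to 30. It was 8.36 (4.48 to 17.6) against control replicate 2 alone, and 79.2 (14.1 to 3140) against replicate 3 alone, so the size of the fold depended on the control used and its direction did not. These intervals cover counting error only. At 24 h the tag ratio was 0.52 (0.315 to 0.84), but the fit over all genes, which includes the spread between libraries, gave a log2 fold change of −0.36 (95% confidence interval −0.78 to 0.06, adjusted p = 0.372). The filter on low values, over 70 reads in at least 1 library as estimated from RPKM, gene length and all mapped reads of the library, which exceed the tags counted here, was passed by Derl3 in 3 of 3 cholesterol loaded libraries at 48 h and in 2 of 3 controls at 24 h, and by none of the other libraries. The other 9 genes passed it in every group, with 162 to 2459 tags per library.

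**Figure D2:**
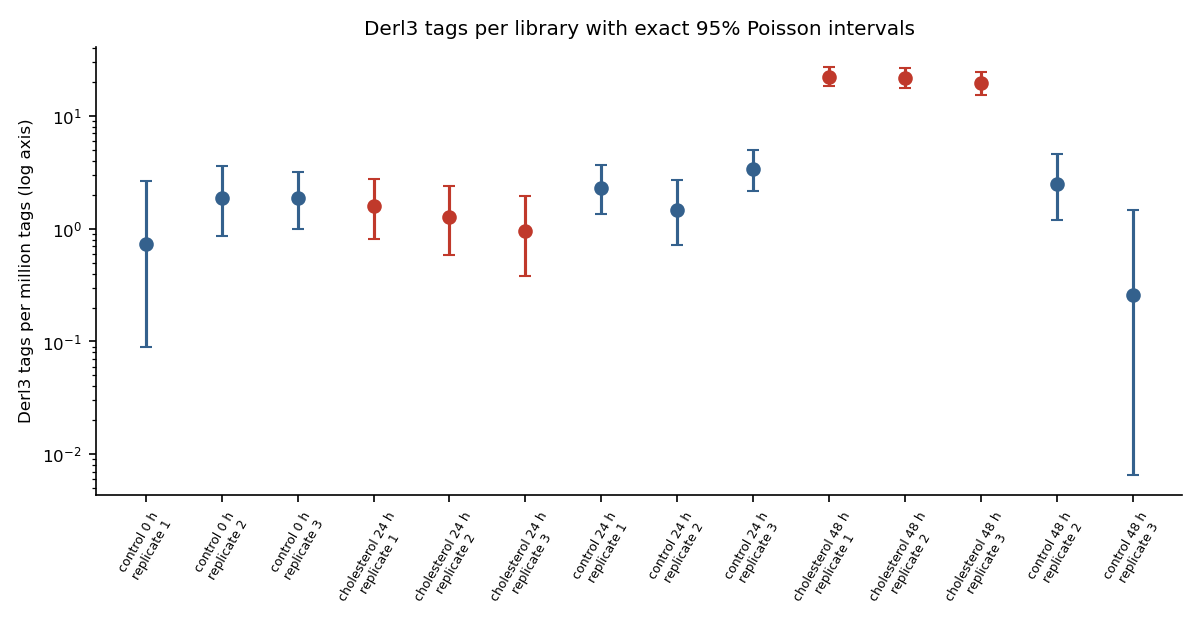
Derl3 tags scaled to the total tags of each of the 14 libraries (y axis, log scale), by library (x axis). Bars are 95% Poisson intervals. Before scaling, the cholesterol loaded libraries at 48 h hold 71 to 111 tags, against 10 and 1 in the controls of the same time.

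The other derlins changed little in comparison. Derl1, which is expressed in most tissues, was at 7.78, 7.35 and 7.93 RPKM in cholesterol loaded cells at 48 h and at 5.26 and 5.27 RPKM in controls. Its log2 fold change was 0.47 (SE 0.0655, adjusted p = 0.000291), a mean ratio of 1.46, and at 24 h it was 0.04 (adjusted p = 0.813). Derl2 was at 8.52, 8.18 and 8.62 RPKM in cholesterol loaded cells at 48 h, against 6.83 and 7.70 RPKM in controls. The groups did not overlap, but the log2 fold change of 0.19 (95% confidence interval 0.01 to 0.38) missed the threshold over all genes (adjusted p = 0.114). It passed when the RPKM were used as deposited, without rescaling (0.23, adjusted p = 0.0219), with array weights (adjusted p = 0.0464) or without control 0 h replicate 1 (adjusted p = 0.0261). Derl2 ran between 5.80 and 7.66 RPKM at 0 h, a wider range than the gap between its group means at 48 h (8.44 and 7.26). The 7.66 belongs to control 0 h replicate 1, which the study left out of one comparison. Replicates 2 and 3 were at 6.45 and 5.80, a narrower range than that gap.

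Whether the derlins responded unequally was tested on the difference of log2(RPKM + 1) between 2 genes within each library, cholesterol against control at 24 h and 48 h, with an exact two-sided permutation test over 11 libraries and 200 arrangements (smallest possible p 0.005). Together with the Edem genes 6 pairs were tested and p-values were adjusted over the 6. Derl3 minus Derl1 was 0.01 to 0.22 in cholesterol loaded cells at 48 h, against −2.5 to −1.64 in controls. At 24 h it was −2.06 to −1.83 in cholesterol loaded cells and −1.87 to −1.28 in controls. At 48 h the groups stood far apart, whereas at 24 h their ranges overlapped. The change of this difference was 2.18 at 48 h and −0.4 at 24 h, and averaged over both times, as the test does, it was 0.89 (exact permutation p = 0.135, adjusted p = 0.162). For Derl3 minus Derl2 it was 2.46 at 48 h, −0.27 at 24 h and 1.1 on average (exact permutation p = 0.09, adjusted p = 0.135). Since the changes at 24 h and 48 h had opposite signs in both pairs with Derl3, their average cannot decide on a difference confined to 48 h. Derl1 minus Derl2, a much smaller change, pointed the same way at both times, 0.13 at 24 h and 0.28 at 48 h, and passed (exact permutation p = 0.005, adjusted p = 0.015).

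Syvn1, the membrane-embedded ubiquitin ligase at the centre of the complex, was at 24.2, 31.3 and 28.6 RPKM in cholesterol loaded cells at 48 h, against 17.5 and 16.9 RPKM in controls. Its lowest loaded library was still well above both controls, and the log2 fold change was 0.66 (SE 0.084, adjusted p = 0.000147). At 24 h it was at 18.1, 19.5 and 18.5 RPKM in cholesterol loaded cells and at 15.9, 16.3 and 16.4 RPKM in controls. The ranges did not overlap, but the log2 fold change of 0.20 missed the threshold (adjusted p = 0.171). It passed with only the groups compared in the fit (adjusted p = 0.0133), with array weights (adjusted p = 0.00307) or without cholesterol 48 h replicate 1 (adjusted p = 0.0292). Syvn1 overlaps 88 bp of Mrpl49 on the opposite strand and contains the 58 bp of Mir6988. Mrpl49, a mitochondrial ribosomal protein gene, averaged 7.38 RPKM in cholesterol loaded cells at 48 h and 9.7 in controls. Mir6988 averaged 7.98 RPKM in loaded cells and 6.75 in controls at that time. The part of these overlaps in the Syvn1 values was not tested.

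Herpud1, a membrane protein that binds Syvn1 and is among the genes most readily raised by the unfolded protein response, was the one ERAD gene called at 24 h. It was at 12.4, 13.7 and 12.3 RPKM in cholesterol loaded cells and at 9.5, 9.57 and 9.74 RPKM in controls at that time. The log2 fold change was 0.38 (SE 0.0605, 95% confidence interval 0.25 to 0.51, adjusted p = 0.00316), a mean ratio of 1.33. At 48 h it reached 22.9, 24.1 and 26.1 RPKM in cholesterol loaded cells, against 10.5 and 10.6 RPKM in controls. That log2 fold change was 1.13 (SE 0.0677, 95% confidence interval 0.99 to 1.28, adjusted p = 4.86e-07), a mean ratio of 2.31 and the second largest of the 10. Controls stayed near 10 RPKM throughout, at 11.4, 10.2 and 10.1 RPKM at 0 h.

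Sel1l, the adaptor that links substrate lectins to Syvn1, was at 10.1, 12.1 and 12.8 RPKM in cholesterol loaded cells at 48 h and at 7.82 and 7.91 RPKM in controls. It rose by a log2 fold change of 0.51 (SE 0.0835, adjusted p = 0.000904), with a wider spread among loaded than among control libraries. At 24 h the log2 fold change of Sel1l was 0.04 (adjusted p = 0.876). Os9, which binds trimmed sugar chains and docks on Sel1l, was at 12.3, 11.3 and 12.8 RPKM in cholesterol loaded cells at 48 h and at 10.5 and 10.3 RPKM in controls. The groups did not overlap, yet the log2 fold change of 0.20 (95% confidence interval 0.02 to 0.38) missed the threshold (adjusted p = 0.106). As with Derl2 it passed on the RPKM as deposited (0.24, adjusted p = 0.016), with array weights (adjusted p = 0.0264) or without control 0 h replicate 1 (adjusted p = 0.0165).

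The Edem genes, which trim or recognise mannose on misfolded glycoproteins, did not move as a unit. Edem1 was at 8.57, 9.48 and 9.76 RPKM in cholesterol loaded cells at 48 h, against 6.09 and 6.01 RPKM in controls. It was at 5.83 to 6.48 RPKM in every other library, and its log2 fold change at 48 h was 0.54 (SE 0.0537, adjusted p = 2.5e-05). Edem2 was at 3.57, 3.16 and 2.90 RPKM in cholesterol loaded cells at 48 h, against 2.20 and 2.17 RPKM in controls, and rose by 0.40 (SE 0.0598, adjusted p = 0.000482). Edem3 was at 1.56, 1.83 and 1.73 RPKM in cholesterol loaded cells at 48 h and at 1.53 and 1.68 RPKM in controls. Its groups overlapped and its log2 fold change was 0.05 (95% confidence interval −0.06 to 0.17, adjusted p = 0.516). At 24 h none of the 3 was called (adjusted p = 0.549 to 0.957).

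Within libraries, Edem1 minus Edem3 on the log2 scale was 1.89 to 1.98 in cholesterol loaded cells at 48 h, against 1.39 to 1.48 in controls. The change of this difference was 0.49 at 48 h and 0.09 at 24 h (exact permutation p = 0.005, adjusted p = 0.015). Edem2 minus Edem3 changed by 0.35 at 48 h and 0.08 at 24 h (exact permutation p = 0.01, adjusted p = 0.02). Edem1 and Edem2 were not told apart, with changes of their difference of 0.14 at 48 h and 0.02 at 24 h (exact permutation p = 0.35, adjusted p = 0.35). Without any 1 of the cholesterol loaded libraries at 48 h the 3 passing pairs had adjusted exact permutation p-values of 0.05 to 0.0667, with fewer arrangements left. Edem2 and Edem3 also missed it without control 48 h replicate 2 (adjusted p = 0.1) or 3 (0.275), and without replicate 2 of either group at 24 h (0.06).

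**Figure D3:**
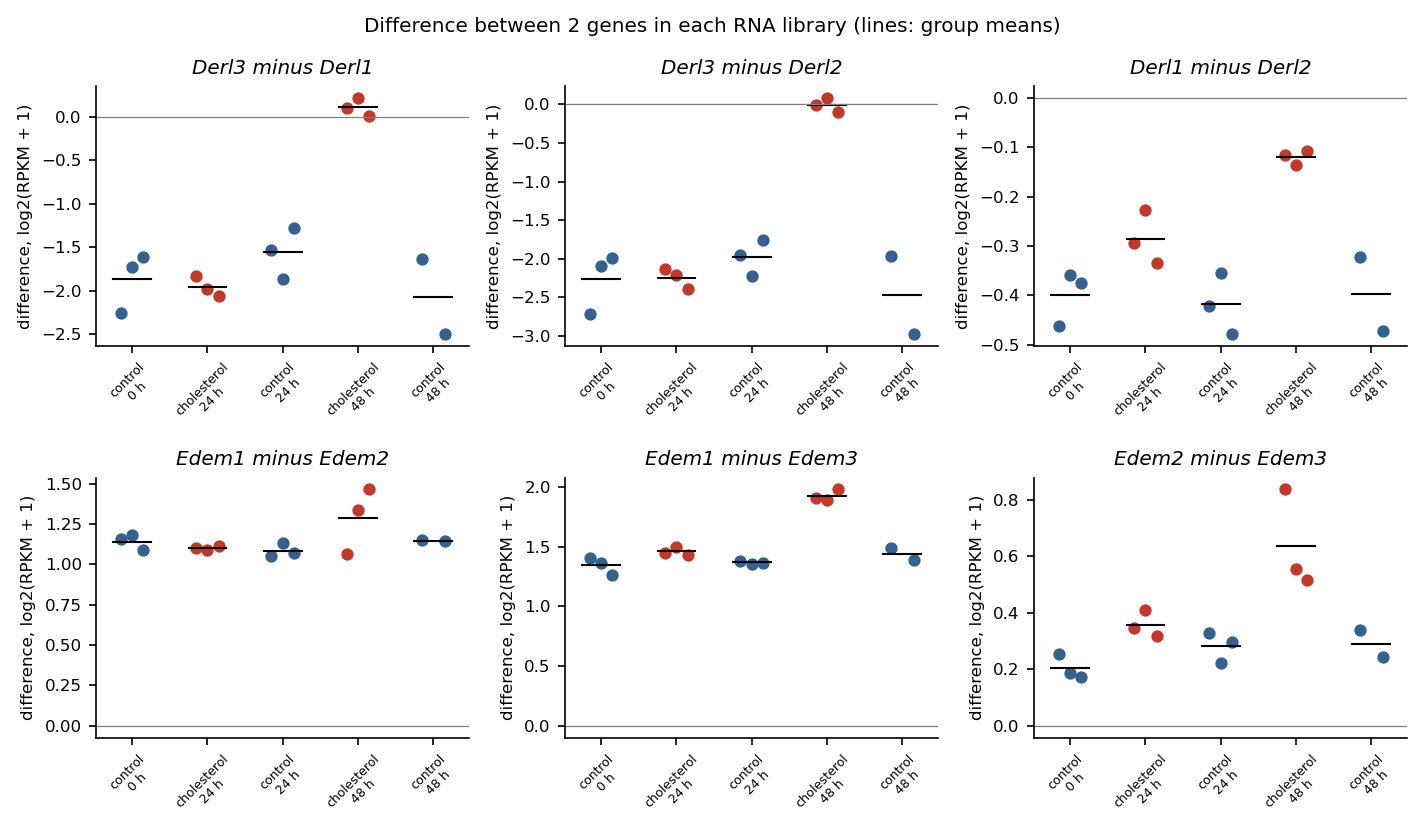
Difference of log2(RPKM + 1) between the 2 genes of each of 6 pairs within every library (y axis), by group (x axis). At 48 h the cholesterol loaded libraries stand apart from controls in the pairs with Derl3 and in Edem1 minus Edem3, and overlap them in Edem1 minus Edem2.

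At 24 h the ERAD genes as a group were close to controls. Herpud1 was the only 1 of 10 called higher and 0 were called lower, against 2.48% of all genes higher and 2.96% lower. At an unadjusted p under 0.05 there were 2, Herpud1 and Syvn1, and the share of all genes at that threshold is not given here. In 6 of 10 the log2 fold change was positive, with a median of 0.02. Every cholesterol loaded library lay above every control for Syvn1 and Herpud1, as in 17.9% of all genes, and below for Derl2 and Edem3, as in 21.1% of all genes.

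Compared directly between the times, the effect of cholesterol was larger at 48 h than at 24 h for 7 of 10 genes, against 2.30% of all genes. Here too the contrast with all genes is descriptive, given how the 10 were chosen. The difference in log2 fold change was 3.01 for Derl3 (SE 0.289, 95% confidence interval 2.38 to 3.64, adjusted p = 0.000288). It was 0.75 for Herpud1 (adjusted p = 0.000951), 0.51 for Edem1 (adjusted p = 0.00203) and 0.43 for Derl1 (adjusted p = 0.0146). Edem2 (0.39, adjusted p = 0.0152), Sel1l (0.47, adjusted p = 0.0308) and Syvn1 (0.46, adjusted p = 0.0336) were nearer the threshold. Without control 48 h replicate 2, and likewise without replicate 3, 3 genes were called (Derl3, Herpud1 and Edem1). Syvn1 and Sel1l each lost the call without any 1 of 10 of the 14 libraries, with adjusted p-values up to 0.115 and 0.1. For Derl2, Os9 and Edem3 the differences were 0.29, 0.21 and 0.12 (adjusted p = 0.193, 0.384 and 0.453).

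**Figure D4:**
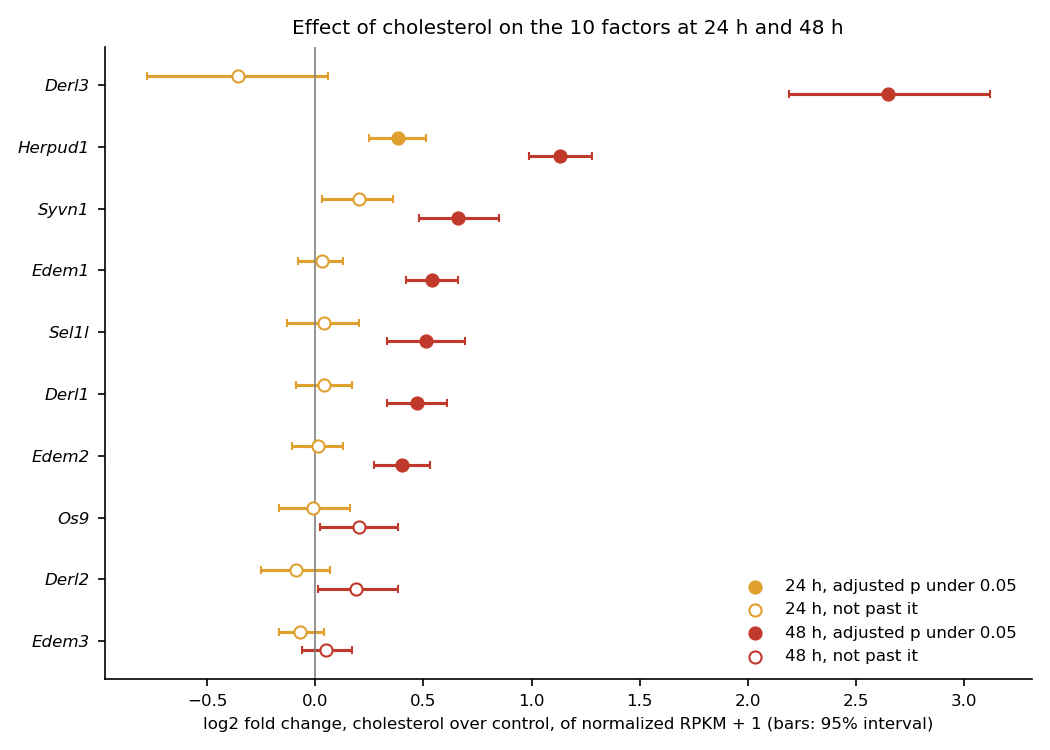
Log2 fold change of cholesterol loaded against control cells (x axis, log2(RPKM + 1) scale) with 95% confidence intervals for the 10 genes at 24 h and 48 h. Herpud1 is called at both times, and Derl3 lies at −0.36 at 24 h and at 2.65 at 48 h.

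Time in control medium alone was followed by no called change in these genes. At 24 h against 0 h 0 of 10 were called, against 8.26% of all genes, and 0 had an unadjusted p under 0.05. At 48 h against 0 h 0 of 10 were called, against 15.7% of all genes, and 1 had an unadjusted p under 0.05, Edem3 at −0.12 (adjusted p = 0.157). The shares of all genes at the unadjusted threshold are not given here. Weighted counts from the reads recovered from RPKM (limma's voom) also gave 0 in both comparisons, whereas leaving out control 0 h replicate 1, the shallowest library, gave 2 at 48 h against 0 h. How many of all genes were called in that fit is not given here, and the 15.7% belongs to the fit with all libraries.

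RPKM here is per kilobase of the whole gene body, introns included, so levels of different genes were compared as tags per kilobase of annotated exon, scaled to the same library total. The tags still include those in introns, so genes with long introns can read higher on that scale. Edem3 has a gene body of 66954 bp for 6604 bp of exon, and Derl3 2543 bp for 1336 bp. On that scale Derl3 had the lowest mean of the 10 in every group. In cholesterol loaded cells at 48 h it reached 16 ± 0.722 (SD, n = 3), which overlapped Edem3 at 17.3 ± 1.38, against 1.06 ± 1.21 in controls (n = 2), where Edem3 was at 16.3. Herpud1 led the order in cholesterol loaded cells at 48 h with 110 ± 7.33, followed by Os9 (80.6 ± 4.87) and Sel1l (79.8 ± 9.48), which overlapped. Next came Syvn1 (59.4 ± 7.59) and Derl1 (56 ± 2.21), which also overlapped, then Edem1 (48.6 ± 3.25), Edem2 (38.9 ± 4.13) and Derl2 (27 ± 0.752). Controls at 48 h had another order, led by Os9 at 69.2, Sel1l at 53.8 and Herpud1 at 47.8. In cholesterol loaded cells at 24 h Os9 (59.5) and Herpud1 (58) overlapped at the top, whereas in controls at 24 h Os9 (59.9), Sel1l (48) and Herpud1 (43.5) stood in that order. Per kilobase of gene body the order in cholesterol loaded cells at 48 h differed, with Syvn1 first (28) and Derl3 the seventh of the 10 (8.38).

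In the genome (mm10) the 10 genes lie on 9 chromosomes. Derl3 occupies chr10:75893398-75895941 on the plus strand with 7 exons, and Os9 lies on the same chromosome at chr10:127094259-127121160 on the minus strand. Herpud1 is at chr8:94386500-94395358 (plus strand, 8 exons), Syvn1 at chr19:6047145-6053718 (plus strand, 16 exons) and Sel1l at chr12:91806043-91849157 (minus strand, 21 exons). Derl1 is at chr15:57869502-57892418 and Derl2 at chr11:71007440-71019303, both on the minus strand. Edem1 lies at chr6:108828641-108859356 and Edem3 at chr1:151755374-151822328 on the plus strand, and Edem2 at chr2:155701673-155729475 on the minus strand. Only Syvn1 overlaps another annotated gene.

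Across the 14 libraries, 5 genes outside the 10 followed Derl3 most closely by Pearson correlation of log2(RPKM + 1). They were Slc2a6, a hexose transporter (r = 0.966), Enah, a regulator of actin assembly (0.953), Ints4, a subunit of the Integrator complex (0.953), Mustn1 (0.95), and Ormdl2, a regulator of sphingolipid synthesis (0.945). Slc2a6 averaged 10.8 RPKM in cholesterol loaded cells at 48 h and 3.32 in controls, and Mustn1 27 in loaded cells and 15.9 in controls. Among the ERAD genes Derl3 correlated most with Edem1 (0.935) and Edem2 (0.918) and least with Edem3 (0.038), which had r between −0.042 and 0.156 with every other member. These values describe libraries that share treatment groups, and the 3 loaded libraries at 48 h carry most of the variation of Derl3.

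Of 34 other genes of the ERAD machinery that were tested, 7 rose and 2 fell at 48 h, and their median change was 0.06 on the log2 scale. Of all genes tested 11.9% rose and 12.9% fell at this time. At 24 h 2 of the 34 rose and 0 fell, against 2.48% of all genes higher and 2.96% lower. The largest rises were those of Sdf2l1, Dnajb9 and Txndc11. Sdf2l1, a partner of the chaperone BiP, averaged 26.4 RPKM in cholesterol loaded cells at 48 h and 8.17 in controls (log2 fold change 1.58, adjusted p = 9.78e-07). Dnajb9, a co-chaperone also known as ERdj4, averaged 20.6 RPKM in loaded cells and 8.83 in controls (1.14, adjusted p = 3.78e-06), and Txndc11, a thioredoxin-domain protein that works with Edem proteins, 4.79 RPKM in loaded cells and 3.15 in controls (0.48, adjusted p = 5.15e-05). Both Dnajb9 (0.30, adjusted p = 0.0483) and Txndc11 (0.19, adjusted p = 0.0337) were already higher at 24 h. Herpud2, the paralog of Herpud1, rose by 0.20 at 48 h (adjusted p = 0.0144). The other 3 that rose were Selenos (0.43), Ube2g2 (0.28) and Rnf185 (0.25). The 2 that fell were Erlin2, a membrane scaffold that directs ERAD of the IP3 receptor (5.21 RPKM in cholesterol loaded cells and 6.84 in controls, log2 fold change −0.34, adjusted p = 0.000936), and Rnf139, a sterol-sensing ubiquitin ligase also known as TRC8 (2.34 RPKM in loaded cells and 3.03 in controls, −0.27, adjusted p = 0.00721). Vcp, the ATPase that extracts ERAD substrates from the membrane, was at 0.04 (adjusted p = 0.818).

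Among 12 sensors and transcription factors of the unfolded protein response, 6 rose and 0 fell at 48 h, with a median of 0.19, against 11.9% of all genes higher and 12.9% lower. Ddit3, the stress factor CHOP, was called at both times, with a log2 fold change of 1.40 by 48 h, and its 0.71 at 24 h was the only call among the 12 then, against 2.48% of all genes higher. Xbp1 rose by 0.44, the kinase Eif2ak3 (PERK) by 0.35, Atf6 by 0.34, the protease Mbtps2 by 0.20 and the kinase Ern1 (IRE1) by 0.17. Atf4 was at 0.44 but missed the threshold (adjusted p = 0.0703). Splicing of Xbp1 and cleavage of ATF6, the steps that activate them, are not measured by these tables.

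H3K27ac regions within 1 kb of the start were listed for 8 of 10 ERAD genes in cholesterol loaded cells at 48 h, against 9 in controls, and for 9 in each of the other 3 conditions. Among all genes tested the shares were 82.7% in cholesterol loaded cells and 84.7% in controls at 48 h, and between 80.0% and 86.8% in the others. With 1 library per condition no test was possible. In tags scaled to a common library total, Herpud1 carried 270 in cholesterol loaded cells at 48 h and 310 in controls, and at 24 h 359 in loaded cells and 333 in controls. Syvn1 carried 262 in loaded cells and 271 in controls at 48 h, and 312 in loaded cells and 288 in controls at 24 h. Derl1 carried 149 in loaded cells and 142 in controls at 48 h. Regions were called separately in each library and differ in length, for Herpud1 2568 bp in cholesterol loaded cells at 48 h and 3342 bp in controls, and for Edem1 1428 bp in loaded cells and 2462 bp in controls, so tags and tags per kilobase can point in different directions. Per kilobase of region, the ratio of cholesterol loaded to control cells at 48 h was 1.14 for Herpud1, 0.905 for Syvn1, 0.857 for Edem1 and 0.82 for Derl1, all inside the 0.704 to 1.42 that holds 90% of genes. Edem2 had a ratio of 2.26, from regions of 500 bp with 24.2 tags in cholesterol loaded cells and 10.7 in controls. At 24 h the highest ratio was that of Edem1, 1.49, where the middle 90% of genes ran between 0.775 and 1.47, and the lowest that of Edem2, 0.803.

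Derl3 had no listed H3K27ac region within 1 kb of its start at 24 or 48 h in either treatment. At 0 h a region of 500 bp with 16.9 tags was listed there, at chr10:75893422-75893922. Over all genes with a region in both lists, tags per kilobase had a median ratio of 1.57, control 24 h over 0 h. Signal at 0 h was thus lower for most such genes, and whether the Derl3 region was lost later was not tested. The nearest regions later on lay 3668 to 4114 bp downstream of the Derl3 start, within the neighbouring gene Smarcb1, and carried 243 tags in cholesterol loaded and 256 in control cells at 24 h, and 214 in loaded and 224 in control cells at 48 h. At 0 h a region 6349 bp downstream of the Derl3 start, also within Smarcb1, carried 19.6 tags. On the upstream side, regions at −3166 and −7324 bp from the start carried 16.9 and 19.6 tags at 0 h. Edem3, whose RNA was not called, had 103 tags in cholesterol loaded and 96.7 in control cells at 24 h, no region in cholesterol loaded cells at 48 h and 105 tags in controls. Absence from a list means only that the region did not pass the caller's limits over input.

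**Figure D5:**
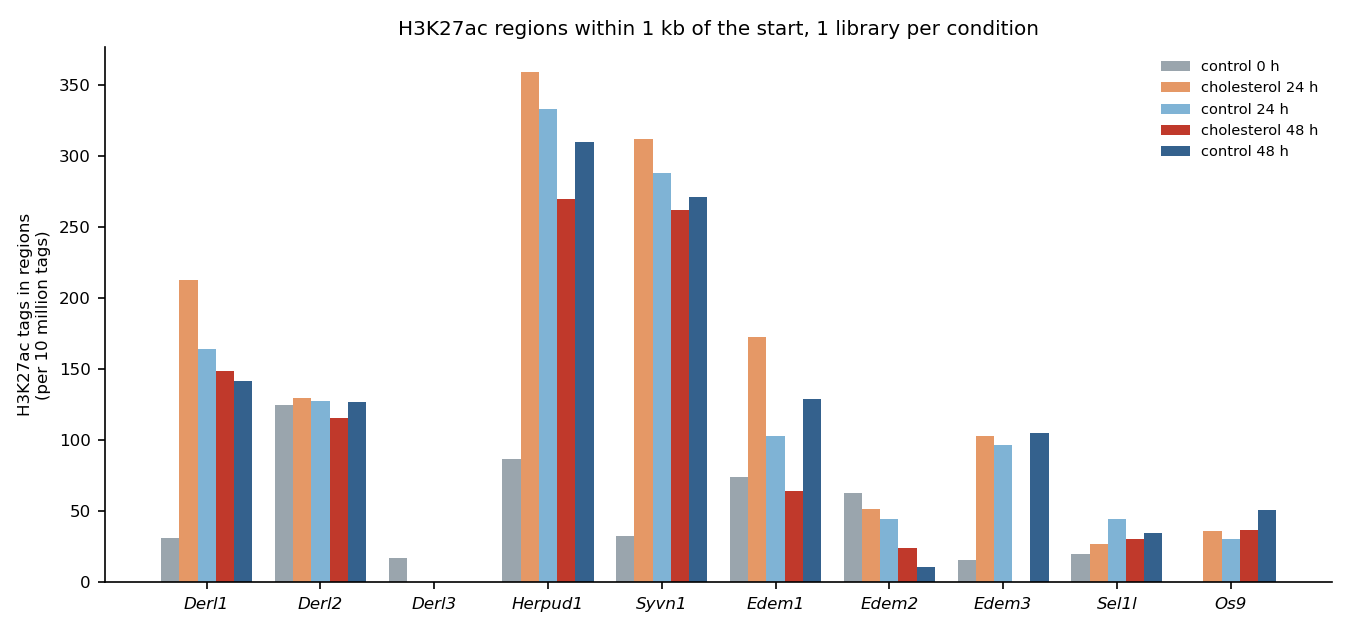
H3K27ac tags, scaled to a common library total, in regions within 1 kb of the start of each ERAD gene (y axis) in the 5 conditions, with 1 library each and no error. Derl3 has no region at 24 or 48 h, and Herpud1 and Syvn1 carry the most tags at 24 h and 48 h.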

How the data were processed

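RNA reads were mapped to mm10 with STAR by the authors, who used HOMER to count tags (at most 1 per position) over RefSeq gene bodies, introns included, and deposited RPKM. The cap of 1 tag per position can compress the values of short, abundant genes. Deposited RPKM were whole multiples of 1 tag (within 0.25 tag, 100% of values). For H3K27ac the authors used Bowtie2 and HOMER. The signal is tags scaled to a common library total, as deposited, and the deposited fold ratio over input was at least 4. Tool versions are not given in the sources used here.

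RPKM were rescaled by median of ratios (factors 0.904 to 1.057). Genes with over 70 reads (estimated from RPKM, gene length and the mapped reads the study lists) in 1 or more libraries entered a limma 3.58.1 fit (R 4.3.3) of log2(RPKM + 1), with 1 mean per group over all 14 libraries and eBayes with trend. Adjustment was by Benjamini-Hochberg, at 0.05. "Called" means past this threshold. The authors' likelihood ratio test on counts was not repeated, because the table holds RPKM. The study describes replicates as biological, and p-values measure the spread between these libraries. The sequencing site of each library is not given, the authors discarded control 48 h replicate 1, and control 0 h replicate 1, which they left out of one comparison, is kept here.

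Members and lists (ERAD machinery, unfolded protein response, smooth muscle, macrophage, endothelial, plasma and B cell, and fibroblast markers) were chosen with earlier results of these data known. Named genes were the 10 members, the 3 highest and 3 lowest called genes of the ERAD machinery list at 48 h, and the 5 genes most correlated with Derl3. Genes of the unfolded protein response list, Selenos, Ube2g2, Rnf185, Vcp, Mrpl49, Mir6988 and Smarcb1 were named after their values had been seen. Alternatives were other scaling, pseudocount, filter, weights, transcript row, voom, groups fitted, a replicate block and leaving out each library.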

Additional observations from a re-analysis of the deposited data

Results flagged for a closer look

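Among the 10 ERAD genes and the 6 named genes of the ERAD machinery list, there were 10 for which the effect of cholesterol at 48 h differed from that at 24 h by the test of the difference itself. The differences in log2 fold change, 48 h minus 24 h, were 3.01 for Derl3, 0.75 for Herpud1, 0.51 for Edem1, 0.47 for Sel1l, 0.46 for Syvn1, 0.43 for Derl1 and 0.39 for Edem2. Among the named genes of the ERAD machinery they were 1.25 for Sdf2l1 (limma adjusted p = 0.000682), 0.84 for Dnajb9 (adjusted p = 0.00212) and 0.29 for Txndc11 (adjusted p = 0.0361). The 6 genes of that list were named by their change at 48 h, so the count of 10 is descriptive only. Over the whole ERAD machinery list 3 of 34 had a larger effect at 48 h by this test, against 2.30% of all genes. Ddit3, of the unfolded protein response list, also passed this test (0.69, adjusted p = 0.00132), as did the markers Tek (−0.27, adjusted p = 0.000613) and Pi16 (−0.47, adjusted p = 0.0446). Each of the 10 named first had a positive log2 fold change at 48 h, and for Derl3 alone the value at 24 h was negative.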

How the results depend on the processing

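The number of ERAD genes called at 24 h was 2 with array weights and with only the groups compared, and 1 to 2 when 1 library was left out. At 48 h it was 7 to 9 in all settings. The number whose effect differed between the times was 3 to 7 when 1 library was left out (3 without control 48 h replicate 2 or replicate 3) and 5 to 8 in other settings. In control medium 0 were called at 24 h in any setting, and 0 to 2 at 48 h when 1 library was left out (2 without control 0 h replicate 1). Passing pairs numbered 0 to 3 when 1 library was left out, with 0 without each cholesterol 48 h library. Only Os9 at 24 h changed sign, to 0.02 on RPKM as deposited, to 0.02 without cholesterol 24 h replicate 1 and to 0.0 without control 24 h replicate 3 (range with 1 library left out −0.04 to 0.02). Of 140 values at 48 h with 1 library left out, 138 kept direction and side of the threshold and 2 crossed to called. For the difference between times, 24 of 140 were no longer called, most of them Syvn1 or Sel1l. The log2 fold change of Derl3 at 48 h was 2.22 to 3.08 when 1 library was left out and 4.34 with voom. Replicate numbers did not pair the libraries (same-number correlations −0.28 to 0.127 over 26 pairs, 1 over 0.1). With a replicate block, 1 gene was called at 24 h, 7 at 48 h and 6 for the difference, where Sel1l was lost (adjusted p = 0.058). Regions of H3K27ac were listed in 44 combinations of gene and condition within 1 kb of the start and in 44 within 3 kb. Low tag numbers limit Derl3 in every group but cholesterol loaded cells at 48 h.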
